A study of Rattus norvegicus with 241 samples.

Results

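Parity was compared in sorted basal cells of the mammary gland of adult ACI rats that had received only vehicle. The members were chosen by the sample labels: basal cell fraction, adult animal, control treatment, with 4 parous and 4 virgin females, which makes 8 of the 241 samples of the series. The rats were 18 to 24 weeks old and were gavaged with vehicle 2 times per day for 10 days. All 8 animals thus had the same dosing schedule and no drug, and tissue was taken after the last dose. Basal cells were sorted as CD24+CD29high cells from which CD31+ and CD45+ cells had been gated out. ACI is an inbred strain known for mammary tumors under estrogen, and parous means that the female had given birth. How many litters a rat had, the time since weaning, the age of each rat and the estrous stage were not given in the sources used here. Age and time since the last litter can therefore not be told apart from parity in these groups. The same sort was also made from 4 virgin and 4 parous rats dosed in parallel with 75 mg/kg of TGFBRi (LY2157299, which blocks the kinase of the type I receptor for TGFβ), and luminal cells were sorted from the same vehicle rats. Both serve below as comparisons.

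Basal cells form the outer layer of mammary ducts and alveoli. Most are myoepithelial: they carry keratins 5 and 14, sit on the basement membrane and contract in response to oxytocin to eject milk, while a minority can behave as stem cells in transplantation. Pregnancy expands the alveoli, lactation fills them, and involution removes most secretory cells after weaning. In rodents and women an early full-term pregnancy lowers the later risk of breast cancer, and altered hormone, WNT and growth-control programs have been discussed as lasting marks of parity.

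The values are counts per gene that the authors divided by a size factor for each library. Reads on genes numbered between 21805588 and 29728987 in the 8 libraries, and between 11775 and 12561 genes had at least 1 read. The sort was checked against its defining genes: KRT5 lay between 19332 and 61020 normalized counts, KRT14 between 76463 and 170726, and CNN1, encoding a contractile protein, between 41176 and 89658. In the luminal libraries of the same rats, which were scaled separately, KRT5 lay between 37.6 and 2357.1. Virgin library 1 stood apart. Its correlation with the other 7 libraries over all tested genes lay between 0.879 and 0.91 on the log2 scale, against medians of 0.938 to 0.962 for the others, and it supplied 84% of the first principal component, which held 35.6% of the variance. PTPRC, which marks all leukocytes, stood at 693.9 in that library and at no more than 7.65 in the other 7. KRT5 was lowest there, at 19332, and KRT18, a luminal keratin, was highest, at 31330 against 2245 to 5419 elsewhere. The value without that library is given where leaving it out turned the direction or moved a fold change or median by over 1.5 times. In bulk samples fewer cells of a type and less RNA per cell cannot be told apart.

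**Figure D1:**
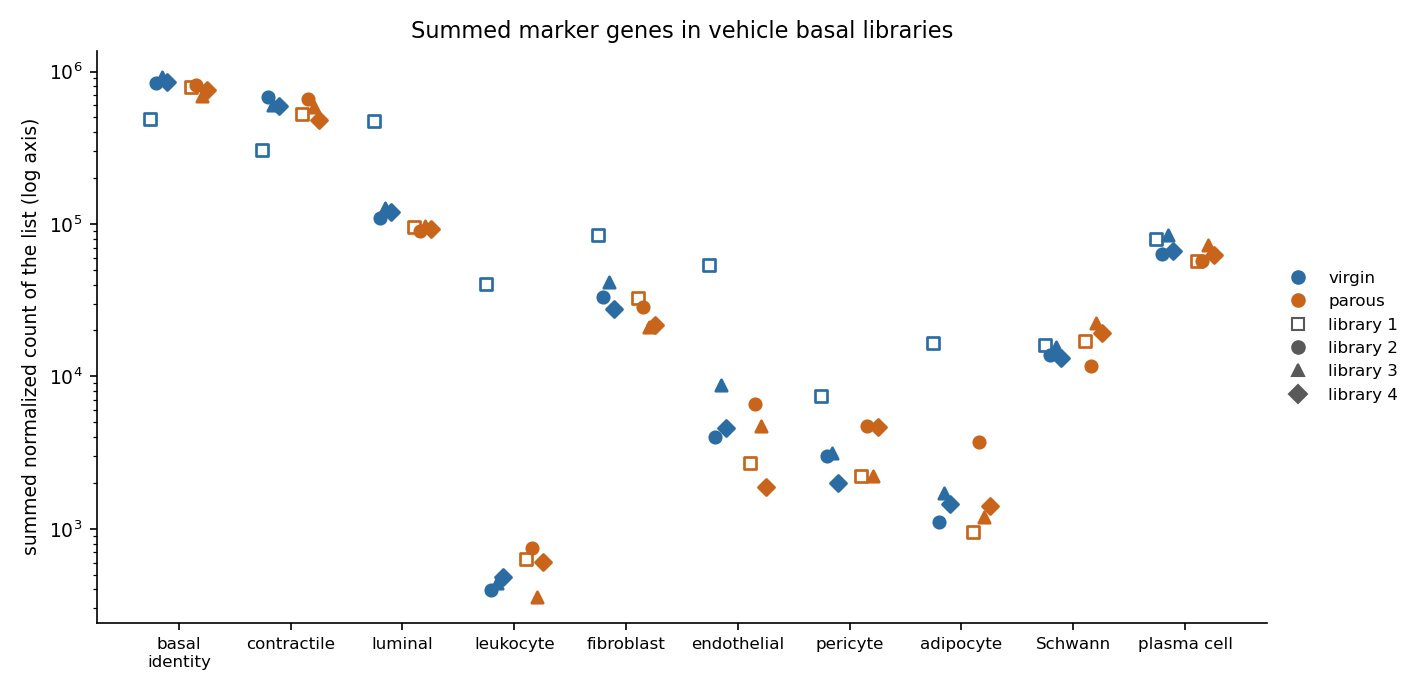
Summed normalized counts (log axis) of marker lists in each vehicle basal library, blue for virgin and orange for parous rats, with library 1 of each group as an open square. Virgin library 1 lies below the others in the basal and contractile sums and above them in the luminal, leukocyte, fibroblast, endothelial, pericyte and adipocyte sums, and the parous luminal sums, 89809 to 97007, all lie below the virgin ones.

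No gene passed the test for parity. Of 13442 genes tested by limma, 0 (0%) passed a Benjamini-Hochberg threshold of 0.05 in either direction, and edgeR on the recovered reads also called 0. At an unadjusted p under 0.05 limma found 408 genes (3.04%), 238 lower (1.77%) and 170 higher (1.26%) in parous rats, and edgeR found 662. Virgin and parous values were fully apart for 381 genes (2.83%), 203 lower (1.51%) and 178 higher (1.32%) in parous rats. Over the 70 arrangements of 4 against 4 rats, full separation in either direction has a probability of 0.0286 per gene without any group difference. The share seen was near that value. Of all genes 54.4% were lower and 45.3% higher in parous rats by sign alone, with a median log2 fold change of −0.04. The smallest adjusted p by limma rounded to 1, so every limma fold change given for vehicle basal cells describes a difference that was not called. Among the 10025 genes with a mean of at least 50 reads the standard error of the log2 fold change had a median of 0.33, with quartiles of 0.252 and 0.507.

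**Figure D2:**
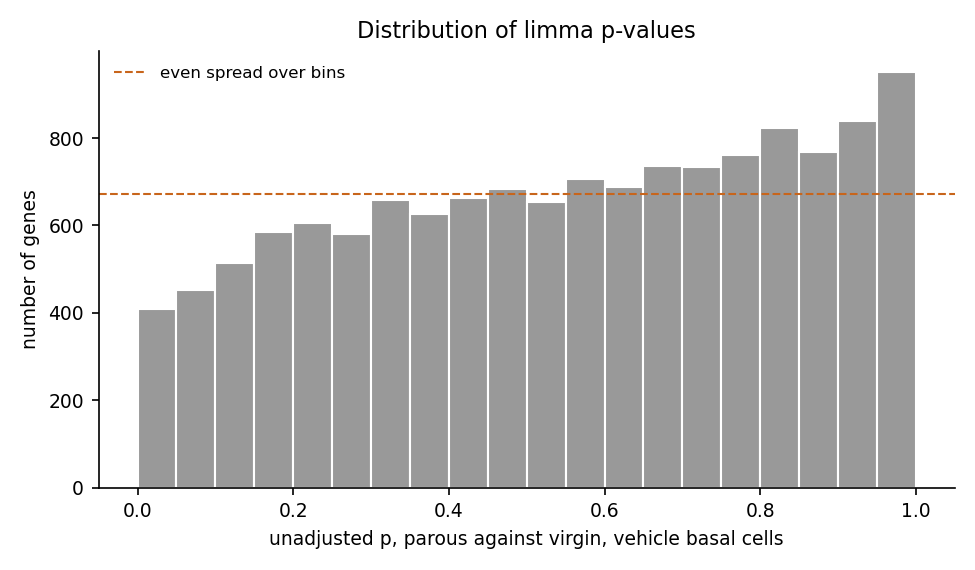
Number of genes (vertical axis) by unadjusted limma p for parous against virgin vehicle basal cells, in 20 bins of equal width. The first bin holds 408 genes and the last 952, where an even spread would give 672 per bin (dashed line).

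DESeq2 on the same reads called 14 genes (0.104%), 12 lower (0.0893%) and 2 higher (0.0149%) in parous rats. Of these 14, 8 had no read in any library of 1 group. NCKAP1L, a leukocyte gene of the WAVE complex, was among them with 200.1 normalized counts in virgin library 1, 2.5 in virgin library 2 and 0 in the other 6. The remaining 6 genes were CLDN3, GJB2, OASL, MAL, OCLN and PLSCR2, each with its highest value in virgin library 1. CLDN3 (a tight junction claudin) had 14871, 638, 1847 and 1882 normalized counts in the virgin rats and 398, 724, 505 and 602 in the parous rats. DESeq2 put the difference at −3.11 on the log2 scale (standard error 0.61, adjusted p = 0.000667), and the groups overlapped. By limma the difference in CLDN3 was −2.14, or −1.26 without virgin library 1. Without virgin library 1 DESeq2 called 7 genes, 4 of them among the 14, and with only the 8 vehicle rats it called 4, none of them among the 14.

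Among genes lower in parous rats, CLCA1 had the widest gap between groups of the 8 with reads in both. CLCA1 encodes a secreted protein known from mucus-producing epithelia. It had 37760.2, 6870.4, 14881 and 12306 normalized counts in the virgin rats and 2164, 2845, 814 and 1058 in the parous rats. Every virgin value lay at least 2.41 times above every parous value. The means were 17954 ± 13619 and 1721 ± 952 (SD, n = 4 each), a difference of −3.28 on the log2 scale (standard error 0.805, limma adjusted p = 1), or −2.83 without virgin library 1. Over all alternatives tried its log2 fold change ran from −3.65 to −2.72, and only DESeq2 with the 8 vehicle rats called it (adjusted p = 0.0057). In luminal libraries of the same rats CLCA1 was far more abundant in its own scale, between 77317 and 882151, and did not separate by parity (log2 fold change −0.40, adjusted p = 0.949). The luminal library of virgin rat 1, whose basal library had the highest CLCA1 value, had the lowest luminal one.

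ACP3, an acid phosphatase, had 822 ± 456 in virgin and 329 ± 71.6 in parous rats (log2 fold change −1.20, standard error 0.34). ANXA3, a calcium-dependent membrane-binding annexin, had 810 ± 583 and 286 ± 41.05 (−1.29, standard error 0.40), and SMOX, which oxidizes spermine, had 2715 ± 1304 and 1507 ± 177 (−0.75, standard error 0.24). Without virgin library 1 these 3 differences shrank to −0.87, −0.87 and −0.46. OCLN, the tight junction protein occludin, stood at 2611, 157, 198 and 359 in virgin rats and at 82.2, 109, 70.5 and 7.63 in parous rats. LRAT, which esterifies retinol, stood at 336.5 in virgin library 1 and between 25.01 and 40.8 in the other virgin libraries, with no more than 15.3 in parous rats. KRT19, a keratin of luminal cells, had 29726 ± 6182 and 18175 ± 4550, and its nearest virgin and parous values, 24805 and 24406, were only 1.02 times apart.

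The macrophage genes were at the limit of detection in most libraries. CLEC10A, a macrophage lectin, had 944, 2.501, 30.5 and 12.996 normalized counts in virgin rats and no read in the 4 parous rats. Against a floor of 3 reads per library this is at least 82-fold lower, and at least 5.08-fold lower without virgin library 1. MRC1, the macrophage mannose receptor, had 454, 10.8, 24.6 and 17.6 in virgin rats and 0 to 9.84 in parous rats. GP2, a membrane glycoprotein best known from pancreatic secretory granules, had 444, 2.501, 17.8 and 144 in virgin rats and no read in parous rats, at least 50.3-fold lower, or 18.1-fold without virgin library 1. CLEC10A, MRC1 and GP2 met the minimum of 50 reads for naming only through virgin library 1. In luminal cells GP2 stood between 469 and 2042 in virgin and between 47.7 and 449 in parous rats (log2 fold change −2.30, standard error 0.58, adjusted p = 0.245). For GP2 the luminal groups did not overlap either, but the share of all genes that separate in luminal cells was not counted.

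Genes higher in parous rats showed smaller differences, with log2 fold changes between 0.55 and 1.07 among the 10 named. Parous library 4, which also had the most reads assigned to no gene (31.7%) and the fewest detected genes (11775), was the highest of all 8 for 9 of the 10, all but NHLRC2. Without it the 10 fold changes lay between 0.52 and 0.88, and CIC went from 0.89 to 0.52. The genes at an unadjusted limma p under 0.05 in either direction then numbered 207 in place of 408. Leaving out another vehicle library gave between 294 (virgin library 1) and 545 (parous library 2). The part of parous library 4 in these differences was not tested. MARCKS, an actin-binding substrate of protein kinase C, had 7141, 7406, 6940 and 8702 normalized counts in virgin rats and 11047, 11928, 11470 and 16465 in parous rats. Its means of 7547 ± 793 and 12727 ± 2518 gave a difference of 0.74 on the log2 scale (standard error 0.19, adjusted p = 1), or 0.72 without virgin library 1. ZFP703, a transcriptional cofactor, had 929, 559, 806 and 725 in virgin and 1111, 1172, 1715 and 2038 in parous rats, a log2 fold change of 0.98 (standard error 0.24). DESeq2 without virgin library 1 called it (adjusted p = 0.0469), and no other fit did. TIPARP, an ADP-ribosyltransferase induced through the aryl hydrocarbon receptor, had 2366 ± 456 and 4422 ± 1569 (log2 fold change 0.86, standard error 0.25).

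PIK3CD, a catalytic subunit of phosphoinositide 3-kinase, had 715 ± 62.8 in virgin and 1377 ± 376 in parous rats, a log2 fold change of 0.90 (standard error 0.29). CTDSPL, a small phosphatase, had 647 ± 78.9 and 1314 ± 516 (0.94, standard error 0.30), and TSPYL2, a nucleosome assembly family protein, had 841 ± 143 and 1461 ± 461 (0.76, standard error 0.24). CIC, the repressor capicua, had 618 ± 109 and 1271 ± 788, but 2447 in parous library 4 and no more than 973 in the other 3. SOBP, NHLRC2 and AKIP1 had log2 fold changes of 1.07, 0.55 and 0.63. The smallest parous value lay between 1.01 times (CIC) and 1.27 times (MARCKS) above the largest virgin value for these 10 genes.

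**Figure D3:**
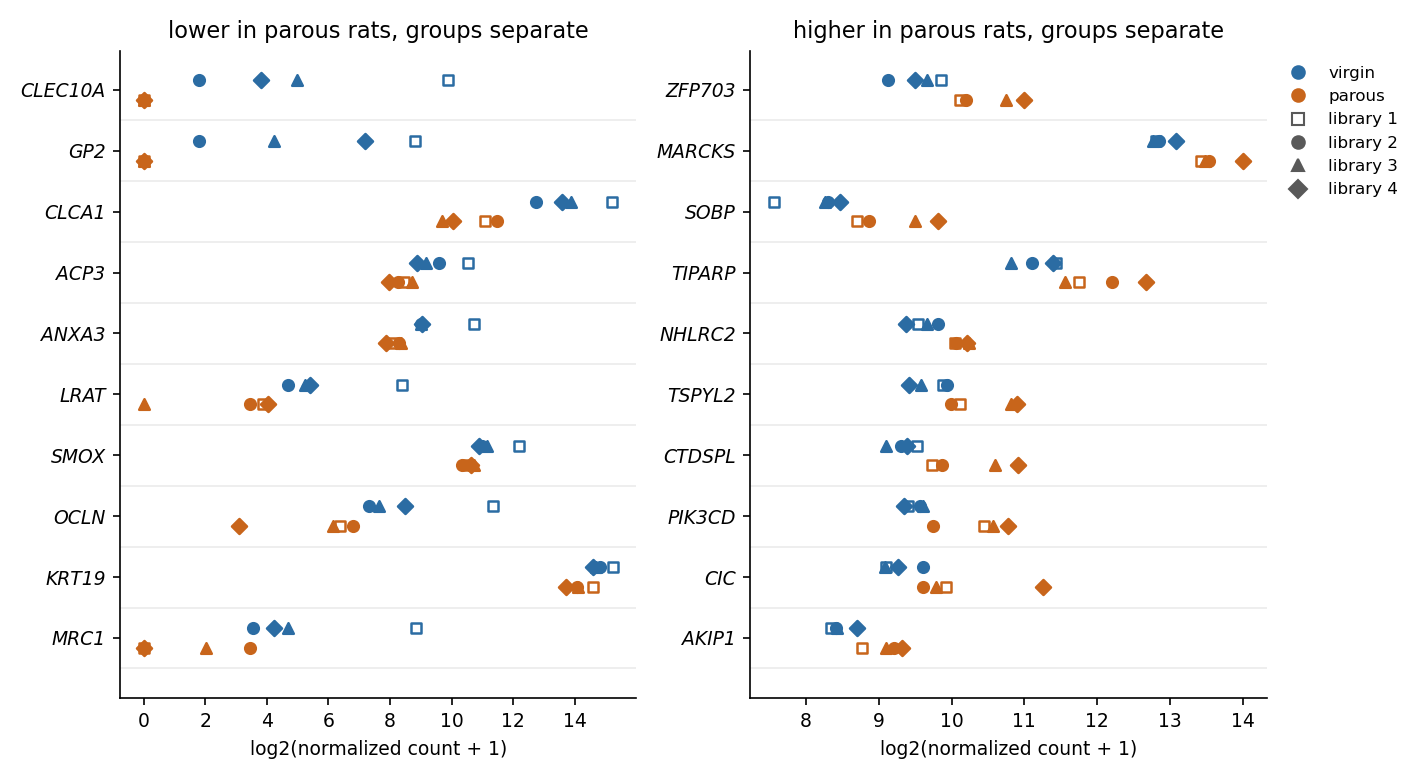
Expression as log2(normalized count + 1) in each vehicle basal library for the 10 genes of smallest p in each direction whose groups do not overlap, blue for virgin and orange for parous, with library 1 of each group as an open square. Virgin library 1 is the highest of all 8 for the genes at left, while the parous values of the genes at right all lie above the virgin ones, from 1.01 times for CIC to 1.27 times for MARCKS between nearest values, and parous library 4 is the highest for 9 of those 10. None of the 20 was called by limma.

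Members of the basal identity list lay on both sides of 0. The basal identity list (keratins, integrins, laminin 332 subunits and basal transcription factors) had 23 members, 13 higher and 10 lower in parous rats, none at an unadjusted p under 0.05, with a median log2 fold change of 0.06 against −0.04 for all genes. Without virgin library 1 the median turned to −0.11, against −0.01 for all genes. KRT14 had 76463, 170726, 151736 and 168076 in virgin and 149909, 161290, 133082 and 151572 in parous rats. Its 95% confidence interval for the log2 fold change ran from −0.45 to 0.72, and without virgin library 1 the value was −0.14. TP63, which specifies basal epithelium, differed by 0.42 on the log2 scale (95% interval −0.33 to 1.17), and by 0.15 without that library. KRT15 was lower in parous rats 3 and 4 (38466 and 42225) than in virgin rats 2 to 4 (125437 to 177136), but virgin library 1 held 41027 (log2 fold change −0.78, standard error 0.54, and −1.23 without that library).

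Of 20 contractile genes, 15 were higher and 5 lower in parous rats, with a median of 0.21 that became −0.01 without virgin library 1. ACTA2, smooth muscle actin, had 6701, 13512, 11851 and 12357 in virgin and 12780, 17566, 29165 and 17363 in parous rats (log2 fold change 0.77, standard error 0.28, unadjusted p = 0.0138). OXTR, the oxytocin receptor, had 3823, 7772, 10627 and 10638 against 9638, 11116, 20622 and 16432 (0.86, standard error 0.41, unadjusted p = 0.0498). These were the 2 members with an unadjusted p under 0.05 (1.26% of all genes were higher at that level), and both kept part of their difference without virgin library 1 (0.55 and 0.53). MYH11, TAGLN and CNN1, which build the contractile apparatus, had log2 fold changes of 0.09, −0.01 and −0.002, which became −0.15, −0.26 and −0.25 without virgin library 1.

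Luminal marker genes were lower in parous basal libraries. Of 22 tested, 21 were lower, 9 with an unadjusted p under 0.05 (1.77% of all genes were lower at that level) and 3 without overlap of the groups (1.51% of all genes). The median log2 fold change was −1.29, and −0.78 without virgin library 1. Summed over the list they reached 470758 in virgin library 1, 110082, 126561 and 119408 in the other virgin libraries, and 95098, 89809, 97007 and 92211 in the parous libraries. All parous sums lay below all virgin sums. The exact two-sided permutation test over 70 arrangements gave p = 0.0286, the smallest this design allows, and 0.229 after adjustment over 8 marker lists. KRT8 had 37830 to 38501 in virgin libraries 2 to 4, 102508 in library 1 and 23386 to 30913 in parous rats (log2 fold change −0.80, standard error 0.31, and −0.44 without virgin library 1). KIT, a receptor of luminal progenitors, had 2023, 102.5, 326 and 327 against 103.9, 90.8, 42.5 and 13.1 (−2.97, standard error 1.27, and −2.18 without virgin library 1). GATA3, a luminal regulator that basal cells here also carried at 6546 to 15306, was the 1 member with a higher level in parous rats (0.48, standard error 0.23). EPCAM, a list member that basal cells also carry, had 53523 in virgin library 1, 18404 to 19743 in virgin libraries 2 to 4 and 17697 to 24562 in parous rats.

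Milk genes and lipid genes were mostly lower but varied widely within each group. Of 16 milk protein genes 14 were lower in parous rats (54.4% of all genes), 1 of them with an unadjusted p under 0.05 (1.77% of all genes), with a median of −1.10 (−0.69 without virgin library 1). CSN2, β-casein, had 3522, 7629, 2487 and 3094 normalized counts in virgin and 2406, 17779, 221 and 1513 in parous rats, so that both the highest and the lowest value were parous. LALBA, α-lactalbumin, had 32409, 739, 2802 and 3971 against 591, 4108, 634 and 1170. Of 20 lipid genes 18 were lower, 3 of them with an unadjusted p under 0.05, to be read against the same shares, with a median of −0.52 (−0.20 without virgin library 1). THRSP, a regulator of fatty acid synthesis, had 4425, 1495, 966 and 1406 against 634, 1545, 308 and 391 (−1.56, standard error 0.57). FASN, fatty acid synthase, had a log2 fold change of −1.46 (standard error 0.62), and −0.76 without virgin library 1.

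Genes of the hormone axis differed in both directions. Of 19 genes 10 were lower and 9 higher in parous rats, with a median of −0.02, or 0.01 without virgin library 1. AREG, an estrogen-induced ligand of the EGF receptor, had 2738, 1060, 1368 and 1363 in virgin and 1000, 417, 417 and 941 in parous rats, without overlap as for 1.51% of all genes (log2 fold change −1.26, standard error 0.46, unadjusted p = 0.0132). AREG is also a member of the luminal list above and 1 of its 3 genes without overlap, so it is no separate finding. WNT4, a progesterone-induced ligand, had 798, 388, 311 and 537 against 365, 213, 276 and 311 (−0.74, standard error 0.31, and −0.49 without virgin library 1). STAT5A, the transcription factor downstream of prolactin, had 1599.7, 642, 808 and 783 against 663, 431, 556 and 545 (−0.73, standard error 0.30, and −0.45 without virgin library 1). GHR, the growth hormone receptor, was higher, with 1273, 1193, 2029 and 1883 against 1901, 2417, 2031 and 2407 (0.49, standard error 0.23). ESR1 and PGR, the estrogen and progesterone receptors, were scarce in basal cells, at no more than 50.3 and 174 outside virgin library 1.

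WNT, NOTCH and EGF pathway genes showed no shared direction. Of 12 WNT ligands 5 were lower and 7 higher (median 0.06). A list of 18 WNT receptors and co-receptors, which also held PROCR, not a WNT receptor, had 9 lower and 9 higher (0.00). Of 16 WNT targets and antagonists 6 were lower and 10 higher (0.06). Without virgin library 1 these 3 medians were −0.15, 0.01 and −0.11. Of these WNT genes, 2 were lower with an unadjusted p under 0.05 (1.77% of all genes): WNT4 and WNT7B, a ligand with 14.2 to 56.4 in virgin and 0 to 14.2 in parous rats. WNT5A, a noncanonical ligand, had 560, 317, 996 and 848 against 935, 1131, 801 and 1304 (log2 fold change 0.72, standard error 0.37). AXIN2, a widely used WNT target, had 26.4 to 100.9 in virgin and 5.47 to 147 in parous rats. The 19 NOTCH genes had a median of −0.04, or 0.09 without virgin library 1, with none at an unadjusted p under 0.05. Among 23 EGF and IGF genes AREG, already counted in the luminal and hormone lists, was the 1 with an unadjusted p under 0.05 (1.77% of all genes were lower at that level). TGFA, another ligand of the same receptor, was the 1 higher without overlap (1.32% of all genes). TGFA had 1019 to 1615 in virgin and 1665 to 2204 in parous rats (log2 fold change 0.58, standard error 0.35).

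With all 8 libraries TGFβ pathway genes showed no shared direction either. Of 19 ligand, receptor, SMAD and latency genes 10 were lower and 9 higher, with a median of −0.02, or 0.12 without virgin library 1. TGFBR3, the co-receptor betaglycan, was higher without overlap (1.32% of all genes), with 2542, 2556, 3168 and 2620 in virgin and 3464, 3712, 3283 and 5079 in parous rats (log2 fold change 0.50, standard error 0.31). TGFBR1 and TGFBR2, the signaling receptors, had log2 fold changes of −0.12 and −0.26, which became 0.12 and 0.03 without virgin library 1. Of 18 target genes 9 were higher and 9 lower, with a median of 0.06, or 0.285 without virgin library 1 (−0.014 for all genes). Those with an unadjusted p under 0.05, both higher (1.26% of all genes), were ACTA2 and SMAD7, a feedback inhibitor with 3467, 2377, 2967 and 977 against 2998, 3689, 5141 and 6539 (0.99, standard error 0.41). A list of 5 genes tied to secretory basal cells (ID3, S100A4 and EPAS1 from the signature of the study, and SORBS2 and PROCR of 1 subcluster) had a median of −0.03, or 0.39 without virgin library 1. It is a small selection, not the full signature, and since the genes were named from data of the same series they are no independent evidence of a direction. PROCR, one of them, ranged from 3934 to 20058 in virgin and from 3632 to 11944 in parous rats.

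Cell cycle genes differed more between rats than between groups. Of 25 genes of the G2 and M phases 23 were lower in parous rats with a median of −1.13, but none had an unadjusted p under 0.05. Their summed counts were 826, 5997, 678 and 2498 in virgin rats and 3254, 524, 624 and 677 in parous rats, so that 3 rats, virgin 2, virgin 4 and parous 1, held most of the signal. MKI67, a proliferation marker, had 52.7, 278, 16.1 and 157 against 135, 10.9, 2.07 and 65.4. The 23 S phase genes had a median of −0.31 and the 19 cyclins, kinases and inhibitors one of −0.09, the latter −0.17 without virgin library 1. CDKN1B, which encodes the inhibitor p27, had 419, 491, 603 and 781 in virgin and 706, 605, 794 and 910 in parous rats (0.42, standard error 0.27).

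Of 18 collagen genes 14 were lower in parous rats (median −0.19) and of 29 laminin and matrix genes 23 were lower (median −0.31), where 54.4% of all genes were lower with a median of −0.04. Without virgin library 1 these medians were −0.39 and −0.16. COL3A1, a fibrillar collagen, had 14458, 16585, 19201 and 13549 in virgin and 13121, 9648, 5121 and 4611 in parous rats, without overlap (log2 fold change −1.10, standard error 0.69). POSTN, periostin, had 7115, 5145, 6608 and 5084 against 4584, 3373, 1975 and 2236 (−1.04, standard error 0.63), also without overlap. Of all genes 1.51% were lower without overlap and 1.77% lower at an unadjusted p under 0.05. LAMC3, a laminin subunit, had 1147, 346, 537 and 207 against 176, 234, 205 and 85.02 (−1.48, standard error 0.47, unadjusted p = 0.0062). Summed markers of fibroblasts, which make such collagens, lay between 27825 and 85121 in virgin and between 20997 and 32722 in parous rats (exact permutation p = 0.114). Collagen transcripts can make up much of this sum, so it is no separate measure of fibroblasts. The median log2 fold change of the fibroblast list was −0.54, or 0.08 without virgin library 1. The part of fibroblasts in these values was not tested.

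Values of many immune genes were highest in virgin library 1. The leukocyte list had a median of −1.42 over its 23 tested genes, which became 0.29 without that library. Its sums were 40226 in virgin library 1, 399 to 480 in the other virgin libraries and 358 to 747 in parous rats. The 10 MHC class II genes went from a median of −0.91 to −0.15 and the 31 chemokines and cytokines from −0.53 to −0.03. Among 25 interferon-stimulated genes 21 were lower, 5 of them with an unadjusted p under 0.05, with a median of −0.56 (−0.21 without virgin library 1), where 1.77% of all genes were lower at that level and 54.4% by sign. RSAD2, an antiviral enzyme, had 426, 83.4, 92.4 and 116 in virgin and 12.9, 65.6, 40.5 and 29.4 in parous rats, without overlap as for 1.51% of all genes. Of 21 genes of involution and the acute phase 11 were higher and 10 lower, 2 and 1 of them with an unadjusted p under 0.05 (1.26% and 1.77% of all genes). CFB, a complement factor, was the lower one, with 17995, 830.2, 2777 and 2767 in virgin and 628.5, 1495, 629 and 793 in parous rats (log2 fold change −1.98, standard error 0.76, and −1.16 without virgin library 1). SOCS3, the feedback inhibitor of STAT3 signaling, had 21734, 17570, 30095 and 21152 against 31031, 38804, 54169 and 46504, without overlap as for 1.32% of all genes (log2 fold change 0.91, standard error 0.31, unadjusted p = 0.01). CEBPD, an acute-phase transcription factor, had 10846, 6494, 7650 and 8069 against 8668, 13012, 17650 and 17338 (0.75, standard error 0.30).

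Immediate early and heat shock genes, which respond to cell dissociation among other stimuli, were higher in 15 of 22 cases, with a median of 0.19 and of 0.39 without virgin library 1. DNAJB1, a heat shock cochaperone, had 32542, 68617, 71453 and 73811 in virgin and 74365, 137540, 92738 and 90464 in parous rats, without overlap as for 1.32% of all genes (0.72, standard error 0.32, and 0.43 without virgin library 1). FOS had 152049 to 208225 and 168899 to 272384. The summed level of the list was highest in virgin library 1 (1555500) and in parous libraries 3 and 4 (1424700 and 1474320), against 847226 to 998278 in the other 5. Of 15 clock genes 10 were lower and 5 higher, with a median of −0.14, or −0.09 without virgin library 1. BHLHE40, a repressor that also responds to hypoxia and stress, was the 1 that was higher without overlap (1.32% of all genes), with 7912, 8370, 8267 and 6270 against 11190, 10551, 9976 and 13725 (0.56, standard error 0.21, unadjusted p = 0.0182).

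**Figure D4:**
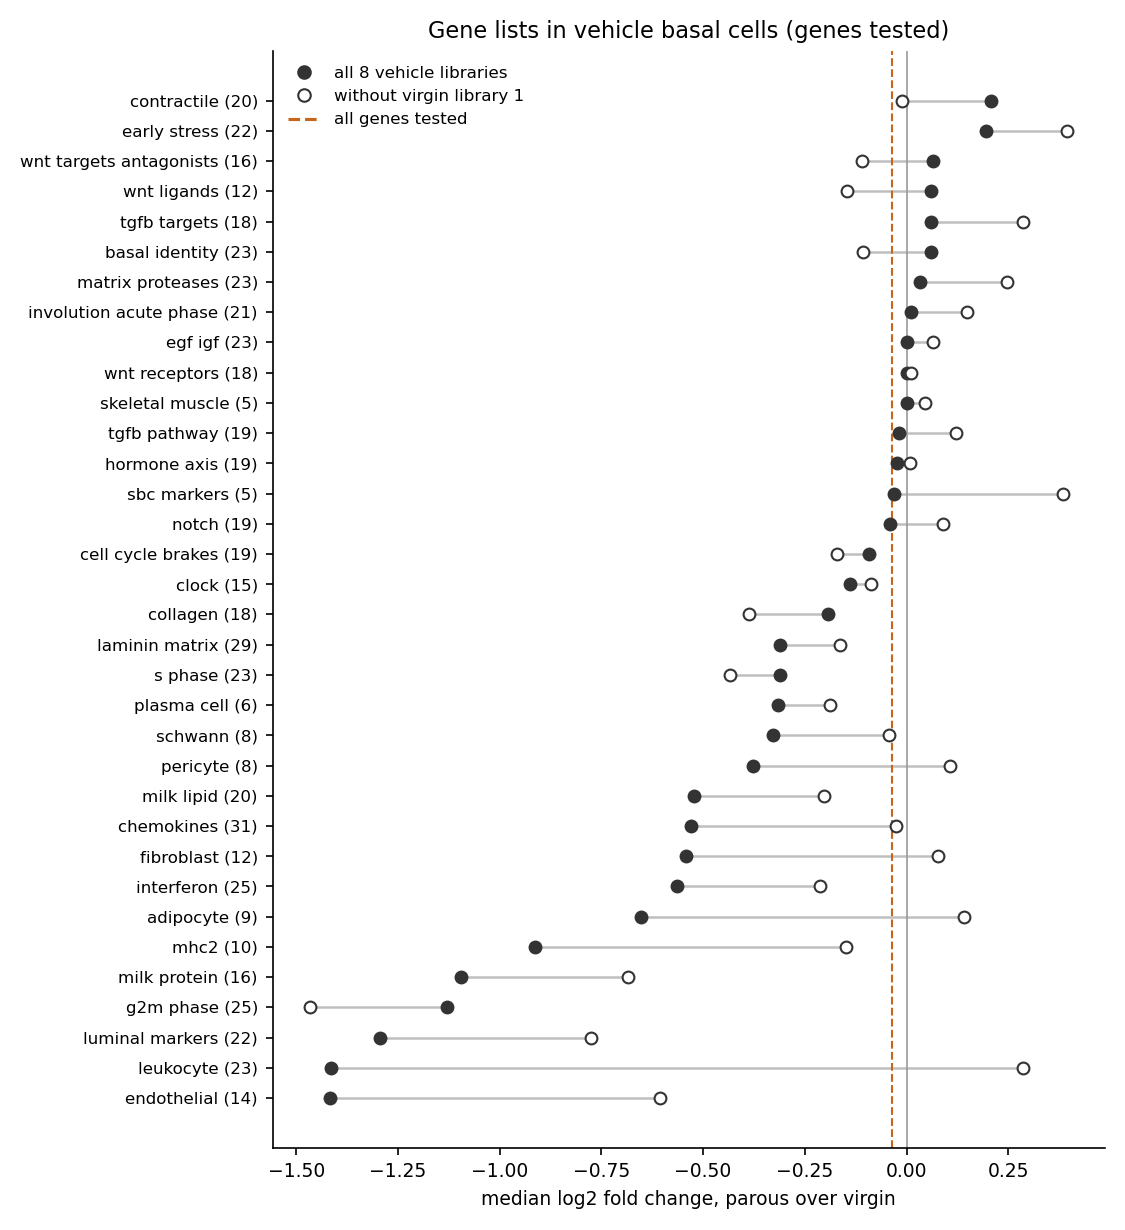
Median log2 fold change of parous over virgin vehicle basal cells for each of 34 gene lists, with the number of genes tested in parentheses, for all 8 libraries (filled) and without virgin library 1 (open). The dashed line is the median of all genes, −0.04. Lists of leukocyte, endothelial, adipocyte and MHC class II genes move most toward 0 or past it without that library, and the luminal list moves from −1.29 to −0.78.

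Other cells that could enter the sort were followed by their markers. Endothelial sums lay between 3977 and 53944 in virgin and between 1893 and 6609 in parous rats (exact permutation p = 0.171), and all 14 genes were lower in parous rats, with a median of −1.42 and of −0.61 without virgin library 1. Sums of pericyte (1991 to 7427 against 2207 to 4715), adipocyte (1115 to 16527 against 949 to 3686) and Schwann cell markers (13201 to 16171 against 11757 to 22386) overlapped between the groups. For plasma cells 6 of 13 genes were tested. SDC1 and XBP1, which epithelium also makes, gave most of that sum, and MZB1, a defining gene, had 25.5 normalized counts in virgin library 1, 0.848 in virgin library 3 and no read in the other 6. Of 9 skeletal muscle genes 5 were tested, 3 lower and 2 higher. CD45+ cells had been gated out. Of the leukocyte defining genes, PTPRC and CD3E stood at 7.65 or less, TYROBP at 28.4 or less and CSF1R between 18.3 and 81.4 in all libraries but virgin library 1, which held 694, 112, 670.3 and 3528. Luminal, fibroblast and endothelial sums were thus highest in 1 virgin library and their part in the differences above was not tested.

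In the rats given TGFBRi 1631 of 13442 genes (12.1%) were called by limma, 449 lower (3.34%) and 1182 higher (8.79%) in parous rats. For 140 genes (1.04%) the parity effect differed between the drug and vehicle arms. The difference of parous minus virgin was more negative under TGFBRi than under vehicle for 24 (0.179%) and more positive for 116 (0.863%). The virgin TGFBRi libraries held between 10151 and 11434 genes with a read, against 12138 to 12575 in the parous TGFBRi libraries. The number of detected genes thus moved with parity in that arm, and its part in these calls was not tested. With only the 8 rats of that arm limma called 399 genes, 59 lower and 340 higher, and edgeR 81, 16 lower and 65 higher. DESeq2 on the same 8 rats called 1182, 453 lower and 729 higher. Leaving out 1 library gave between 895 and 2469 calls for parity in that arm and between 19 and 519 for the difference between arms. Over all genes tested the median log2 fold change in that arm was 0.24, and shares by sign were not counted there. Of the 10 genes named above as lower, 6 were also lower there and none of these was called. CLEC10A and LRAT were called in the opposite direction and differed between arms (adjusted p = 0.0178 for both). All 4 virgin TGFBRi libraries lacked reads of both genes. Of the 10 named as higher, 5 were also higher there, and PIK3CD was called, with 620, 228, 588 and 492 in virgin and 915, 1264, 1025 and 1260 in parous TGFBRi-treated rats (log2 fold change 1.296, standard error 0.29, adjusted p = 0.0105).

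CLCA1 and MARCKS did not separate by parity in the TGFBRi arm. CLCA1 had 832, 4374, 270 and 3060 normalized counts in virgin and 1513, 1223, 9546 and 1632 in parous TGFBRi-treated rats, which differed by 0.81 on the log2 scale (standard error 0.805, adjusted p = 0.53). Both genes had been named because they separate in vehicle rats. By limma the difference of the effect between arms was not called for CLCA1 (4.10, adjusted p = 0.0908) or MARCKS (−0.61, adjusted p = 0.264). MARCKS had 17677, 11235, 14115 and 14285 against 14669, 12511, 17855 and 17427, and both groups lay above every virgin vehicle value. ACTA2, higher in parous vehicle rats, was lower in parous TGFBRi-treated rats, with 34658, 66635, 34213 and 34689 against 14406, 17780, 18577 and 19166 (log2 fold change −1.23, adjusted p = 0.0116), and its effect differed between the arms by −2.002 (adjusted p = 0.0301). TGFBR1, the target of the drug, had 381.5 to 995 in virgin vehicle and 79.6 to 153 in virgin TGFBRi-treated rats, against 373 to 689 and 556 to 750 in parous rats. Its parity effect differed between arms by 2.70 (adjusted p = 0.0116).

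**Figure D5:**
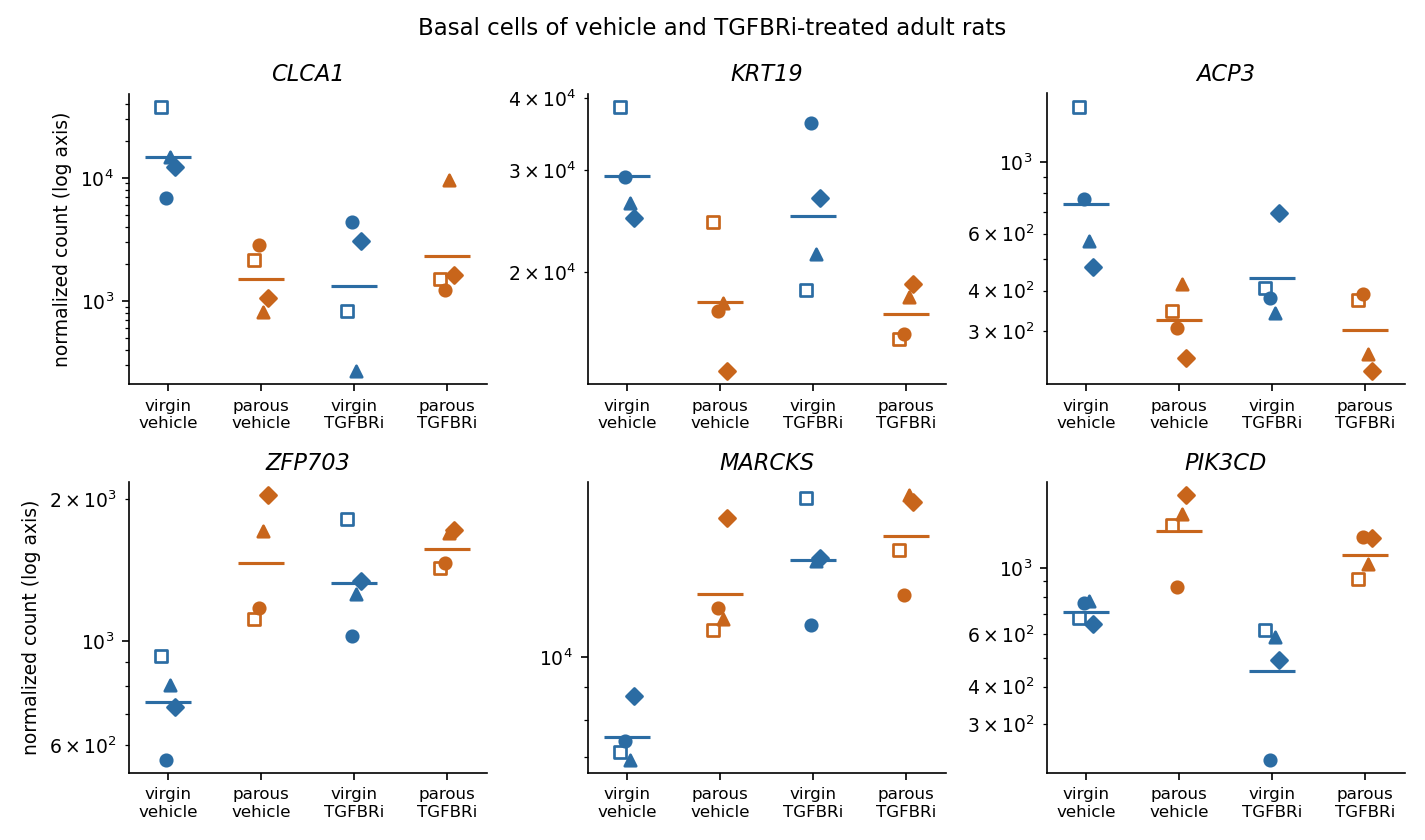
Normalized counts (log axis) of 6 named genes in basal cells of virgin (blue) and parous (orange) rats given vehicle or TGFBRi, 4 libraries per group, with horizontal lines at the geometric means and library 1 of each group as an open square. CLCA1, ZFP703 and MARCKS separate by parity in vehicle rats and overlap in TGFBRi-treated rats, while PIK3CD separates in both. The genes were named because they separate in vehicle rats. By limma the parity effect was not called as different between the arms for any of the 6.

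In luminal cells of the same vehicle rats limma called 0 of 14243 genes (0%), with 1361 at an unadjusted p under 0.05. edgeR called 3 and DESeq2 119. Of the 10 genes lower in parous basal cells 7 were lower in luminal cells, GP2 and LRAT with an unadjusted p under 0.05. Of the 10 higher in basal cells 6 were higher. The genes tested in basal cells had a median luminal log2 fold change of −0.03. Their luminal shares by sign were not counted, so no result is read from these counts. TSPYL2 had a luminal log2 fold change of 0.95 (unadjusted p = 0.0419), and PIK3CD one of −1.85 (unadjusted p = 0.0487) at levels of 0.941 to 77.2, opposite in sign to its basal difference. KRT19 and OCLN, lower in parous basal cells, had luminal log2 fold changes of 0.19 and 0.19.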

How the data were processed

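Sorted basal cells of 4 virgin and 4 parous vehicle-treated rats were measured by bulk RNA-seq. Per the labels and methods, the authors aligned reads to rn6 with STAR 2.5.1b, counted them per gene with HTSeq and normalized them with DESeq2 1.30.1. The deposited values are a signal that is never negative: counts divided by 1 size factor per library, computed by the authors separately for each cell fraction. In all libraries 100% of values were whole multiples of 1 read within a tolerance of 0.001, so reads were recovered for count tests. Rows that name no gene held 26.1 to 31.7% of reads in the 8 libraries and were left out.

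Genes whose values summed to 10 or more were tested on log2(value + 1) with limma 3.58.1 (trend, robust), in 1 model of the 16 vehicle and TGFBRi basal libraries with 4 groups. Fold changes are on that scale and understate low genes. P-values were adjusted by Benjamini-Hochberg over all genes, with a threshold of 0.05. Marker sums were compared by exact two-sided permutation. edgeR 4.0.16 and DESeq2 1.42.0 on recovered reads, TMM scaling, other pseudocounts, filters, replicate blocks and leave-one-out fits were alternatives, and the fits were tested on simulated data. Sample weights, count tests with only the 8 rats of a contrast, and fits without virgin library 1 beyond leave-one-out were chosen after seeing the data.

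Genes are named as the 10 of smallest p per direction that averaged 50 reads or more and had groups that do not overlap, since no gene was called, and as members of 34 lists. Other genes named with DESeq2 calls were chosen after their values were seen. Members and lists were chosen with earlier results of these data known. Replicates are separate rats by their animal marks. Marks recur in both groups, but deviations of rats with the same mark correlated between −0.142 and 0.0541 in the vehicle arm, so the marks were not taken as pairs. No pair of libraries in a group agreed within sampling noise (chi-square per degree of freedom 58.1 to 449).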

Additional observations from a re-analysis of the deposited data

Results flagged for a closer look

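In 14 of 60 groups of 4 libraries tested, 1 library lay apart from the others by Dixon's criterion. Many of these measures come from the same library and are not independent. Chance flags about 1 in 20 groups only for normally distributed values. Genes and marker sums were compared here as normalized counts, not as log2 values. CLEC10A, GP2, LRAT and MRC1 also reached the read minimum for naming only through virgin library 1. The number of flagged groups can therefore not be compared with that rate. Virgin library 1 was the one apart for CLEC10A (944 normalized counts), ANXA3 (1684), LRAT (336), SMOX (4656), OCLN (2611) and MRC1 (454). It was also apart for the summed luminal (470758), leukocyte (40226), endothelial (53944) and adipocyte markers (16527). The cause was not tested.

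Parous library 4 was apart for MARCKS (16465 normalized counts) and CIC (2447), for its share of reads assigned to no gene (31.7%, the next at 27.6%) and for its 11775 detected genes (the next at 12221). Whether these values are related was not tested.

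The parity effect differed between the TGFBRi and vehicle arms for 140 genes by the interaction term of limma. Among the named genes it did so for CLEC10A, by 9.24 on the log2 scale, and for LRAT, by 7.72 (adjusted p = 0.0178 for each). Both genes had no read in the 4 virgin TGFBRi libraries, and CLEC10A none in the 4 parous vehicle libraries, so that these fitted differences depend on the pseudocount and bound nothing.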

How the results depend on the processing

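With 4 rats per group the standard error of the log2 fold change had a median of 0.33 among well-counted genes. Differences of −3.28 (standard error 0.805, CLCA1) and 0.98 (standard error 0.24, ZFP703) in well-counted genes were not called by limma, and low genes rest on a few reads. No gene was called in vehicle basal cells by limma under any alternative, each left-out library included, or by edgeR with all libraries, with the 8 vehicle rats or without virgin library 1, while DESeq2 called 14 genes, 4 with only the 8 vehicle rats and 7 without virgin library 1. All 440 alternative fold changes of the 20 named genes kept their direction, and 4 passed the threshold. These genes were chosen because their groups do not overlap, so a kept direction follows from the choice and is no support. Of 770 alternative list medians 119 turned sign. Causes were not tested.

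Calls in TGFBRi basal cells numbered 399 with only the 8 rats, 782 with sample weights and 81 with edgeR on the 8 rats. Leaving out 1 library gave 895 (parous TGFBRi 3) to 2469 (virgin TGFBRi 1). Beyond 1.5 times the full count were also virgin TGFBRi 3 (1045), parous TGFBRi 1 (914) and parous TGFBRi 4 (953). The difference between arms gave 577 calls with DESeq2, 238 with sample weights, and 85 with edgeR and 392 with DESeq2 without virgin vehicle library 1. Leaving out 1 library gave 19 (virgin vehicle 3) to 519 (virgin TGFBRi 1), 362 for virgin TGFBRi 2, and 26 to 76 for each of the others but virgin TGFBRi 3 and 4, so most libraries moved this count by over 1.5 times. Luminal calls numbered 3 with edgeR, 119 with DESeq2, 3 with sample weights, 244 with DESeq2 on the 8 rats, 51 with DESeq2 and 1 with limma without virgin library 1, and 0 to 29 with 1 library left out (29 without parous vehicle 2).

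With a replicate block of the animal mark, whose pairing the data did not bear out, limma called 0 genes in vehicle basal cells, 1377 in TGFBRi basal cells, 69 for the difference between arms and 1 in luminal cells.

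With 1 rat left out, the log2 difference of marker sums ran from −1.041 to −0.342 (luminal), −1.845 to 0.372 (leukocyte), −0.939 to −0.401 (fibroblast), −1.862 to −0.608 (endothelial), −0.346 to 0.287 (pericyte), −1.149 to 0.151 (adipocyte), 0.099 to 0.408 (Schwann) and −0.313 to −0.168 (plasma cell). The sign turned without virgin library 1 for leukocyte (0.372), pericyte (0.287) and adipocyte sums (0.151), and without parous library 1 (0.097) or 3 (0.091) for pericyte sums.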

Other observations

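Genes of extracellular proteases lay on both sides of 0 in vehicle basal cells, 11 lower and 12 higher in parous rats of 23 tested, with a median log2 fold change of 0.03 (0.25 without virgin library 1). Among list members outside the named genes, the parity effect differed between the TGFBRi and vehicle arms for SYNPO2, a contractile-apparatus protein, by 2.28 (adjusted p = 0.0381), for NOTCH2, a NOTCH receptor, by 1.94 (adjusted p = 0.0304), for STAT5B by 1.80 (adjusted p = 0.0474), for the matrix genes COL6A2, LAMC1 and FBN1 by 1.55, 1.55 and 3.23 (adjusted p = 0.0334, 0.0381 and 0.0249), and for GBP5, an interferon-induced GTPase, by 6.65 (adjusted p = 0.0223), all by limma over all genes tested. In each the vehicle difference was not called and the TGFBRi difference was. GBP5 had no read in the 4 virgin TGFBRi libraries, so that its fitted difference depends on the pseudocount and bounds nothing.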
